A study of Homo sapiens with 16 samples.

Results

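The genes examined were 9 transcription factors that pattern the forebrain: PAX6, EMX1, EMX2, OTX1, OTX2, LHX5, NR2E1, NR2F1 and NR2F2. They were taken by name from 57736 genes, each matched 1 Ensembl gene, and all 9 passed the filter on low counts that left 24249 genes for testing. RNA came from H9, an established human embryonic stem cell line, driven towards cortical neurons by dual SMAD inhibition (LDN193189 and SB431542, which block BMP and TGF-beta signalling). Cells received either 40 µM Thiamet-G (TMG), an inhibitor of the enzyme that removes O-GlcNAc from proteins, or DMSO as the control, including the undifferentiated cells. Libraries were made on days 0, 12, 30 and 70 (D0, D12, D30, D70), with 2 biological replicates in each of 8 groups, so all 16 libraries derive from 1 line. The values asked how these factors move through differentiation and whether sustained O-GlcNAc shifts them.

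Forebrain identity is set in the anterior neural plate by overlapping homeodomain and nuclear receptor factors. OTX2 and OTX1 mark forebrain and midbrain, PAX6 marks dorsal progenitors of the cortex, and PAX6 and EMX2 form opposing gradients that, with graded NR2F1 and NR2F2, divide the cortex into areas. NR2E1, also called TLX, keeps neural stem cells dividing, and LHX5 marks the early anterior plate and later the hem and Cajal-Retzius cells.

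Libraries held between 10334908 and 19836878 counts. For 8 of the 16 libraries a treatment tag names the other arm, while titles, descriptions and column names name 1 arm throughout, and groups follow the titles. The 6 stem cell markers summed to 3228 to 3697 CPM (counts per 1000000 of TMM-scaled library size) on D0 and to 1.90 to 3.47 on D70. A set of 3 libraries, all replicate 2, stood apart in 6 mesenchyme markers (COL1A1, COL1A2, COL3A1, LUM, DCN, TWIST1), with no marker at 0 in them: TMG on D30 at 29346 CPM, control on D70 at 44972 CPM and TMG on D70 at 58852 CPM. The other libraries of D30 and D70 summed to between 3669.6 and 7331 CPM. On D70, TMG replicate 2 had 2 of 5 cortical neuron markers at 0, EOMES and NEUROD6, and NEUROD6 was at 0 in 9 of the 16 libraries. In bulk RNA, fewer cells of a type and less RNA per cell cannot be told apart.

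From D0 to D12, 6 of the 9 factors rose in control cells and 5 in TMG-treated cells, with edgeR's quasi-likelihood test and a false discovery rate limit of 5%. Of all genes tested, 6.97% rose in control cells and 7.24% in TMG-treated cells. PAX6, EMX2, OTX1, NR2F1 and NR2F2 rose in both arms and NR2E1 in control cells. The median log2 fold change of the 9 factors was 4.32 in control and 2.85 in TMG-treated cells, beside 0.00 and 0.04 over all genes tested. OTX2 and LHX5 were higher in every D12 library than in any D0 library but did not pass the test, and EMX1 was lower. Summed markers of some other cell types were also higher in every D12 library than in any D0 library, and those of others were lower. The 8 roof plate and neural crest markers summed to 35.4 to 80.6 CPM on D0 and 517 to 974 CPM on D12, and the 6 mesenchyme markers to 151 to 170.3 and 1047 to 1832 CPM. Within the first of these lists FOXD3 was lower in control cells, at 24.8 and 61.5 CPM on D0 and 9.83 and 17.7 CPM on D12. The 9 midbrain and hindbrain markers summed to 35.3 to 130 CPM on D0 and 2.41 to 6.59 CPM on D12. GBX2 made up most of the D0 sums, at 27.0 to 102 CPM, and had 0.328 to 1.06 CPM on D12. PAX2 was higher on D12, at 0.727 to 1.67 CPM after 0.124 to 0.560. EN1, HOXA2, HOXB2 and HOXB4 held at most 0.393 CPM on either day. The 5 cortical neuron markers summed to 29.5 to 46.0 and 10.6 to 20.1 CPM, with some markers of both lists at 0. The part of these cell types in the rise was not tested.

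**Figure D1:**
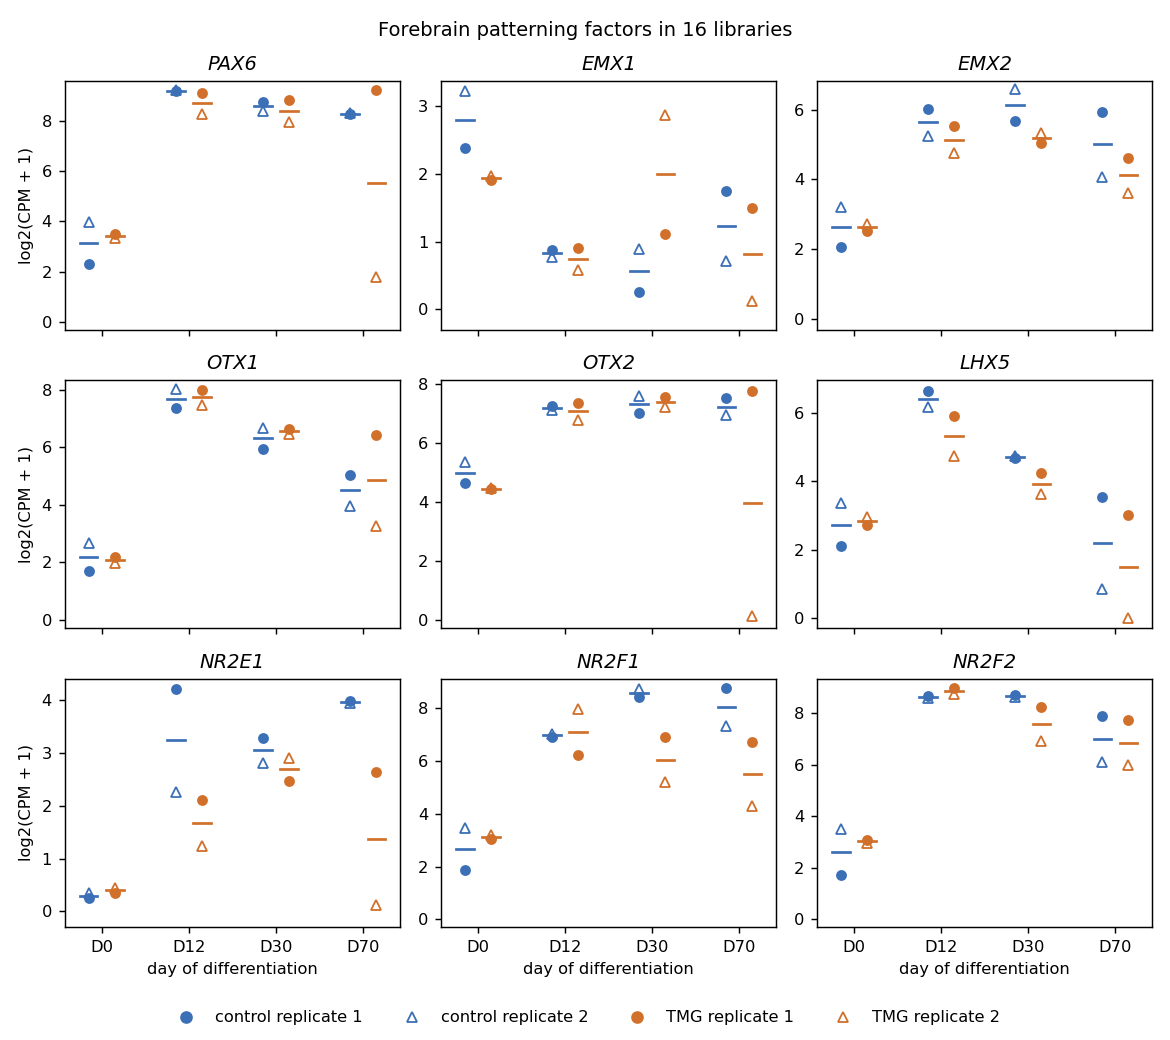
Level of each factor in the 16 libraries, as log2(CPM + 1) by day of differentiation. Circles are replicate 1, triangles replicate 2 and bars the mean of the 2 replicates. From D0 to D12, 8 of the 9 factors were higher in every library, EMX1 was lower, and on D70 the TMG replicates lie far apart.

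PAX6 (ENSG00000007372, chr11:31806327-31839509 on the minus strand of GRCh37) is the paired-box factor of dorsal cortical progenitors. It had 3.95 and 14.6 CPM in the control libraries of D0 and 574 and 585 CPM in those of D12. In TMG-treated cells it went from 10.3 and 9.07 to 551 and 304 CPM. No D12 library overlapped any D0 library, and the log2 fold change was 5.97 ± 1.64 (standard error, adjusted p = 0.0328, edgeR) in control and 5.46 ± 1.60 (adjusted p = 0.0415, edgeR) in TMG-treated cells.

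NR2F2 (ENSG00000185551, chr15:96869167-96883492), the orphan nuclear receptor COUP-TFII, gave the lowest adjusted p of the 9. It had 2.29 and 10.4 CPM in control cells of D0 and 398 and 380.5 CPM on D12, and 7.48 and 6.75 against 498 and 428 CPM in TMG-treated cells. Its log2 fold change was 5.94 ± 0.92 (adjusted p = 0.00302, edgeR) and 6.02 ± 0.92 (adjusted p = 0.00287, edgeR). Its paralogue NR2F1 (COUP-TFI, ENSG00000175745, chr5:92918928-92930317) reached a lower level at D12, with 119 and 131 CPM in control cells after 2.66 and 9.93 on D0. In TMG-treated cells NR2F1 had 7.34 and 8.09 CPM on D0 and 74.4 and 253 CPM on D12, so the D12 replicates of that arm bracketed the controls. The log2 fold change of NR2F1 was 4.32 ± 1.02 (adjusted p = 0.0181, edgeR) in control and 4.40 ± 1.02 (adjusted p = 0.0163, edgeR) in TMG-treated cells.

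OTX1 (ENSG00000115507, chr2:63277192-63284971), the orthodenticle factor later found in deep cortical layers, had 2.22 and 5.32 CPM in control cells of D0 and 162 and 258 CPM on D12. In TMG-treated cells it had 3.50 and 2.94, then 252 and 177 CPM. Stages did not overlap in either arm, with a log2 fold change of 5.80 ± 0.97 (adjusted p = 0.00412, edgeR) and 6.06 ± 0.98 (adjusted p = 0.00355, edgeR). OTX2 (ENSG00000165588, chr14:57266623-57283411, minus strand) is also transcribed in pluripotent cells and began from a higher level, with 23.8 and 40.1 CPM in control and 20.6 and 21.0 CPM in TMG-treated cells of D0. On D12 OTX2 had 152 and 138 CPM in control and 164 and 109 CPM in TMG-treated cells. D0 and D12 did not overlap for OTX2 in either arm, but its log2 fold change of 2.18 ± 1.43 (adjusted p = 0.323, edgeR) in control and 2.72 ± 1.46 (adjusted p = 0.232, edgeR) in TMG-treated cells did not pass.

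EMX2 (ENSG00000170370, chr10:119301956-119309057), the homeodomain factor of the caudomedial cortex, had 3.21 and 8.32 CPM in control cells of D0 and 63.7 and 37.0 CPM on D12. TMG-treated cells had 4.73 and 5.67, then 45.0 and 26.0 CPM. This gave the smallest of the called rises in both arms, a log2 fold change of 3.13 ± 0.70 (adjusted p = 0.0142, edgeR) and 2.77 ± 0.69 (adjusted p = 0.0214, edgeR). Its paralogue EMX1 (ENSG00000135638, chr2:73143389-73163200), a marker of dorsal cortical progenitors and their neurons, went the other way. EMX1 had 4.20 and 8.32 CPM in control cells of D0 and 0.835 and 0.712 CPM on D12, and 2.74 and 2.94 against 0.883 and 0.497 CPM in TMG-treated cells. The log2 fold change of EMX1 was -3.00 ± 1.09 (adjusted p = 0.0847, edgeR) in control and -2.02 ± 1.08 (adjusted p = 0.230, edgeR) in TMG-treated cells, and neither passed.

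LHX5 (ENSG00000089116, chr12:113899838-113910085, minus strand) had 3.27 and 9.30 CPM in control cells of D0 and 98.6 and 71.3 CPM on D12. In TMG-treated cells it had 5.56 and 6.70, then 58.7 and 25.8 CPM. Its log2 fold change of 3.76 ± 1.31 (adjusted p = 0.0742, edgeR) in control and 2.78 ± 1.26 (adjusted p = 0.157, edgeR) in TMG-treated cells did not pass. DESeq2 called 8 of the 9 factors in control cells, all but OTX2, with LHX5 at an adjusted p of 0.0479 and EMX1 at 0.0296, where it called 22.6% of all genes, and in TMG-treated cells the same 5 as edgeR, where it called 22.4%. NR2E1 (ENSG00000112333, chr6:108487226-108510009) was close to undetected on D0, with 3 and 4 counts in the control and 4 and 7 counts in the TMG libraries. On D12 it had 356 and 70 counts, or 17.5 and 3.83 CPM, in control cells and 64 and 22 counts, or 3.33 and 1.37 CPM, in TMG-treated cells. The log2 fold change of NR2E1 was 5.48 ± 1.33 (adjusted p = 0.0199, edgeR) in control and 2.85 ± 1.22 (adjusted p = 0.135, edgeR) in TMG-treated cells, a size that rests on the few counts of D0.

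**Figure D2:**
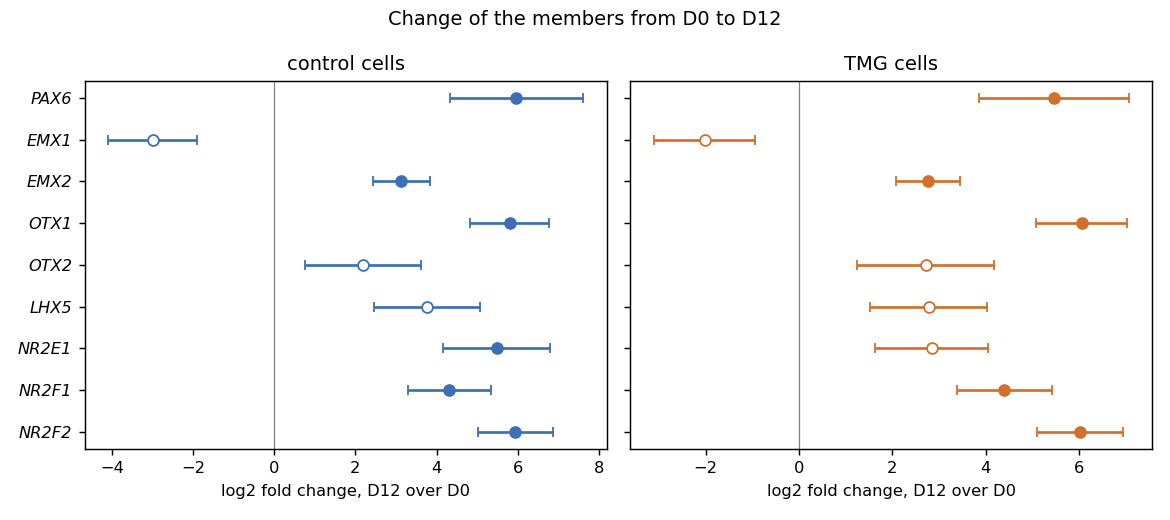
Log2 fold change of D12 over D0 for each factor in control cells (left) and TMG-treated cells (right), with the standard error from edgeR. Filled points passed a false discovery rate of 5%, which 6 factors did in control and 5 in TMG-treated cells.

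The calls between D0 and D12 changed with the libraries and genes that were fitted. Without the 4 libraries of D70, a choice made after the data were seen, all 9 factors passed in control cells and 8 in TMG-treated cells, EMX1 being the exception, where 30.3% and 29.6% of all genes passed in that fit. Leaving out control replicate 1 of D0 or of D12 left OTX1 and NR2F2, and leaving out TMG replicate 2 of D0 left NR2F2 alone. On all genes unfiltered, EMX2, OTX1 and NR2F2 passed in control cells and OTX1 and NR2F2 in TMG-treated cells. The share of all genes called unfiltered or with a library left out is not given, so these losses cannot be set against it.

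Upstream sequence was at hand for 7 of the 9 factors, in 19 windows from RefSeq on GRCh38.p14, and none was listed for EMX1 and LHX5. For each factor the 250 bases before its most upstream listed start were searched on both strands. CCAAT, a common promoter element, was in 5 of 7 (PAX6, EMX2, OTX1, OTX2 and NR2F1), beside 32.0% of all 35116 windows of that length in the table. TAATTA, the core bound by many homeodomain factors, was in 1 of 7 beside 4.35% of all windows. AGGTCA, the half-site of many nuclear receptors, was in 0 beside 12.1%, and TAATCC, the core bound by OTX factors, in 0 beside 5.62%. These letters are a description of the windows and do not mark sites of binding. OTX1 and EMX2 are printed as called factors whose paralogues were not called, OTX2 as the factor already present on D0, and NR2F1 as the factor whose level in TMG-treated cells stood lowest against control on D30. CCAAT in either direction (ATTGG on the other strand) and TAATTA are in capitals, and each run reads 5′ to 3′ towards the start site. They lie at chr2:63050580-63050829 (plus strand), chr10:117542496-117542745 (plus), chr14:56810480-56810729 (minus) and chr5:93582972-93583221 (plus).
OTX1: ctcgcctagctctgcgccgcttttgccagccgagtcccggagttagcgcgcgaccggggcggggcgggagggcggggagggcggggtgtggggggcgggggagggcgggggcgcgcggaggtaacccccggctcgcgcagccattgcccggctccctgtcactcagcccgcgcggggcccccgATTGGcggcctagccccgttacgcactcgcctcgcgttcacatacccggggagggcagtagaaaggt
EMX2: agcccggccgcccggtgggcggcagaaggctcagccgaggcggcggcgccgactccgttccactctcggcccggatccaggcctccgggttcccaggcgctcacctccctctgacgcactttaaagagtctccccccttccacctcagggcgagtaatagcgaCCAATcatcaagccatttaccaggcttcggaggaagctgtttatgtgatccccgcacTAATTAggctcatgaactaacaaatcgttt
OTX2: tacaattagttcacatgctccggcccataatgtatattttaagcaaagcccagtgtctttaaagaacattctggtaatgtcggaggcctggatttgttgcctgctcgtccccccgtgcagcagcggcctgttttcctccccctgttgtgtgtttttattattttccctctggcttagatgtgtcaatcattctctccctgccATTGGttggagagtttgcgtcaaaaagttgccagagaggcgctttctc
NR2F1: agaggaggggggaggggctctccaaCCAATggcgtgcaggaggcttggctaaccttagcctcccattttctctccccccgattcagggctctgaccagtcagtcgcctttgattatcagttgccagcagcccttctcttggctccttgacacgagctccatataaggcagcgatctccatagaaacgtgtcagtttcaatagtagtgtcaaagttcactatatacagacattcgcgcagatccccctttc
The windows differed in base composition. OTX1 held 33 CG dinucleotides, a number reached by 8.15% of all windows, EMX2 held 20 (32.4%), NR2F1 8 (56.3%) and OTX2 7 (58.9%), beside a median of 11. OTX2 and NR2F1, with fewer CG than the median window, sat on opposite sides of the call between D0 and D12.

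No factor passed between D12 and D30 or between D30 and D70 in either arm when all 16 libraries were fitted. By edgeR 3.6% and 0.384% of all genes passed in control cells and 0.511% and 0.00825% in TMG-treated cells, and by DESeq2, which also called 0 factors, 10.3% and 7.08%, and 4.78% and 1.53%. At an unadjusted p under 0.05, 0 and 1 factors (OTX1) stood out in control cells, beside 20.4% and 18.4% of all genes, and 1 (EMX1) and 0 in TMG-treated cells, beside 15% and 11%. Over the longer step from D12 to D70, OTX1 fell in control cells, the 1 call among the 9 where 11.1% of all genes passed. In TMG-treated cells none passed where 5.15% of all genes did, and 3 had an unadjusted p under 0.05, beside 23.5% of all genes. DESeq2 called OTX1 and LHX5 in control cells and OTX1 in TMG-treated cells, where it called 18.7% and 12.6% of all genes. These counts moved with the libraries fitted. Leaving out single libraries gave calls in TMG-treated cells from D12 to D70 and from D30 to D70, with the ranges given in the closing section. Fits of only the 4 libraries compared called OTX1, LHX5 and NR2F1 from D12 to D30 in control cells.

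OTX1 was lower at each later stage in control cells. It had 59.8 and 101 CPM in control cells of D30 and 31.6 and 14.6 CPM on D70, so that no D70 library reached a D30 library and no D30 library reached D12. Its log2 fold change was -1.39 ± 0.79 (adjusted p = 0.353, edgeR) from D12 to D30, -1.80 ± 0.80 (adjusted p = 0.266, edgeR) from D30 to D70, and -3.18 ± 0.84 (adjusted p = 0.0372, edgeR) from D12 to D70. The last call was lost when any 1 of its 4 control libraries was left out. Between the same libraries mesenchyme markers went from 1047 and 1191 CPM on D12 to 7331 and 44972 CPM on D70. Roof plate and neural crest markers went from 517 and 756 CPM to 9975 and 279 CPM. TTR made up most of the D70 sums, at 9812 and 198 CPM after 0.639 and 1.04 on D12. LMX1A, WNT3A, PAX3, SOX10 and FOXD3 were lower in both D70 libraries than in either of D12, and MSX1 and TFAP2A overlapped. The part of either list in the fall of OTX1 was not tested. In TMG-treated cells OTX1 had 98.0 and 87.1 CPM on D30, a log2 fold change of -1.21 ± 0.79 (adjusted p = 0.509, edgeR) from D12.

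LHX5 was lower still at the end. Control cells had 24.9 and 26.0 CPM on D30 and 10.7 and 0.805 CPM on D70, and TMG-treated cells 17.9 and 11.4, then 7.03 and 0 CPM. Within control cells each later stage lay below all libraries of the earlier one. The log2 fold change in control cells was -1.74 (adjusted p = 0.450, edgeR) from D12 to D30, -2.13 ± 1.24 (adjusted p = 0.382, edgeR) from D30 to D70 and -3.86 ± 1.32 (adjusted p = 0.0842, edgeR) from D12 to D70. In the fit without D70, OTX1 and LHX5 passed from D12 to D30 in control cells, as did 13.7% of all genes.

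NR2F1 was higher after D12 in control cells, with 347 and 421 CPM on D30 and 439 and 159 CPM on D70. All 4 of these libraries exceeded both of D12, and the log2 fold change from D12 to D30 was 1.62 ± 0.90 (adjusted p = 0.341, edgeR). NR2F2 held 415 and 389.9 CPM on D30 and had 235 and 67.8 CPM on D70, a log2 fold change of -1.41 ± 0.75 (adjusted p = 0.345, edgeR) between them. Both paralogues had their highest control mean on D30, and on D70 each had its lower value in replicate 2, the library with 44972 CPM of mesenchyme markers.

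PAX6 and OTX2 stayed within a narrow range after D12 in control cells. PAX6 had 431 and 331 CPM on D30 and 306 and 312 CPM on D70, and OTX2 had 130.2 and 194, then 184 and 122 CPM. Each of these PAX6 values lay below both D12 libraries, at 574 and 585 CPM. The log2 fold change of PAX6 from D12 to D70 was -0.91 ± 1.33 (adjusted p = 0.680, edgeR). EMX2 had 50.5 and 95.5 CPM on D30 and 60.2 and 15.9 CPM on D70, with stages overlapping. NR2E1 had 8.74 and 6.07 CPM on D30 and 14.9 and 14.4 CPM on D70, and the D12 libraries lay on either side of these. EMX1 stayed low, with 0.188 and 0.853 CPM on D30 and 2.38 and 0.644 CPM on D70.

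Measured from D0, 6 factors were higher on D30 and 6 on D70 in control cells, where 14% and 15% of all genes rose. They were PAX6, EMX2, OTX1, NR2E1, NR2F1 and NR2F2 at both stages. EMX1 fell from D0 to D30 in control cells (log2 fold change -3.47 ± 1.14, adjusted p = 0.0400, edgeR), as did 16.7% of all genes. In TMG-treated cells 6 factors were higher on D30 and 4 on D70 (PAX6, OTX1, NR2F1 and NR2F2), where 13.4% and 14.9% of all genes rose. The call of PAX6 on D70 rests on TMG replicate 1 at 587 CPM, since replicate 2 at 2.50 CPM lies below both D0 libraries of that arm (10.3 and 9.07 CPM). Leaving out 1 library gave 0 to 6 called factors from D0 to D70 in TMG-treated cells, and the replicate block 2, OTX1 and NR2F2. From D0 to D30 leaving out 1 library gave 1 to 3 in TMG-treated cells and 4 to 5, without EMX1, in control cells, and no filter left 2 and 4. All comparisons with D0 within an arm share its 2 D0 libraries.

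Levels of different factors were compared per kilobase of the canonical Ensembl transcript, which spans 2144 bases for EMX1 and 5287 for NR2F2. On D12 in control cells PAX6 stood highest at 211 CPM per kilobase, followed by OTX1 at 74.3, NR2F2 at 73.6, OTX2 at 48.2, NR2F1 at 32.5, LHX5 at 31.0, EMX2 at 19.4, NR2E1 at 3.29 and EMX1 at 0.361. OTX1 and NR2F2 could not be separated, nor could NR2F1 and LHX5, since each difference was smaller than the SD of its members. On D30 the order in control cells was PAX6 at 139, NR2F1 at 99.9, NR2F2 at 76.2 and OTX2 at 53.8, so NR2F1 had passed NR2F2. In TMG-treated cells of D30 NR2F1 stood at 20.2 and NR2F2 at 39.6 CPM per kilobase. On D0 OTX2 led in both arms, at 10.6 in control and 6.90 in TMG-treated cells.

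**Figure D3:**
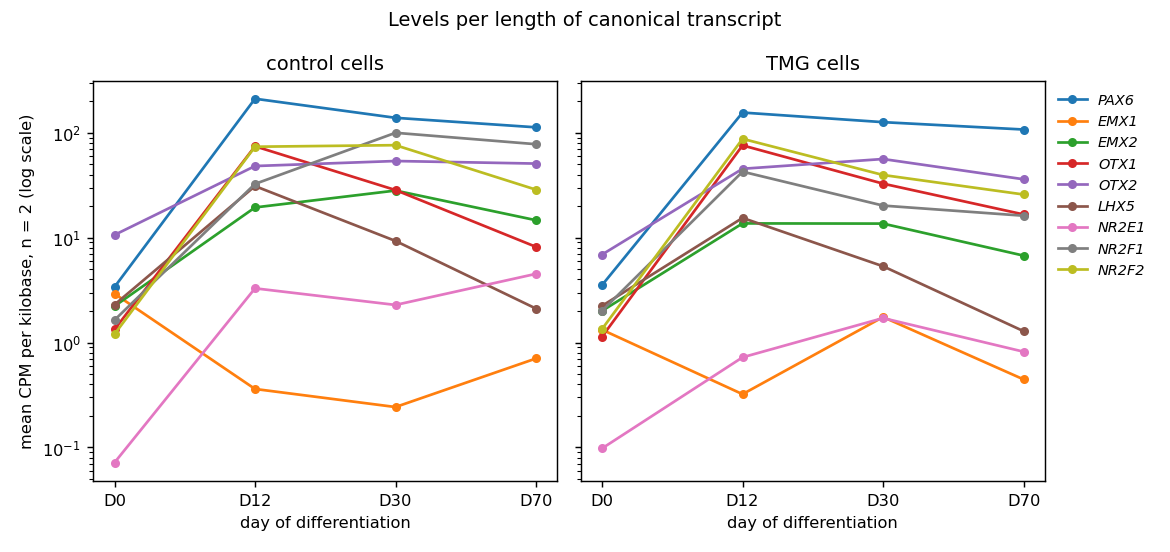
Mean CPM per kilobase of canonical transcript (log scale, n = 2) by day of differentiation, in control cells (left) and TMG-treated cells (right). PAX6 has the highest mean from D12 on in both arms, on D70 in TMG-treated cells through replicate 1 alone, and NR2F1 is second on D30 in control cells at 99.9 but stands at 20.2 in TMG-treated cells. For PAX6 and OTX2 the TMG mean of D70 averages replicates that lie far apart.

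Genes whose spans overlap those of the factors were read beside them, because the kit named for these libraries is not a directional one. Strand therefore does not separate reads from a stretch that both genes share. The overlaps given are of whole gene spans, introns included, and the overlap of exons was not computed. NR2F1-AS1 overlaps NR2F1 by 2428 bases, NR2F2-AS1 overlaps NR2F2 by 1424, EMX2OS overlaps EMX2 by 2624, OTX2-AS1 overlaps OTX2 by 3511, LHX5-AS1 overlaps LHX5 by 300, and ELP4 overlaps PAX6 by 5546. PAX6-AS1 was not matched to a gene of the table. Pearson's r of log2 CPM over the 16 libraries was 0.99 for NR2F2 with NR2F2-AS1, 0.98 for NR2F1 with NR2F1-AS1, 0.97 for LHX5, 0.94 for EMX2, 0.85 for OTX2 and 0.79 for PAX6 with ELP4, a description across libraries that share stages. From D0 to D12 EMX2OS, NR2F1-AS1 and NR2F2-AS1 rose in both arms and LHX5-AS1 in control cells. NR2F1-AS1 had 25.6 and 25.1 CPM in control cells of D12 after 1.24 and 2.03 on D0 (log2 fold change 3.96, adjusted p = 0.00112, edgeR). In control cells LHX5-AS1 passed (log2 fold change 4.51, adjusted p = 0.0407, edgeR) where LHX5 did not. In TMG-treated cells neither passed (LHX5-AS1 log2 fold change 3.74, adjusted p = 0.0686, edgeR).

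TMG changed none of the 9 factors at any stage under the same limit on false discoveries. In the edgeR test 0% of all genes passed at each of the 4 stages. DESeq2 called 0 of the 9 at each stage, and 5, 11, 597 and 55 of all genes (0.0206%, 0.0454%, 2.46% and 0.227%). At an unadjusted p under 0.05, from the first stage to the last 0, 0, 2 and 2 factors stood out, where 1.26%, 2.48%, 12% and 5.49% of all genes did. With 2 replicates a group a factor that misses the threshold is not shown to be alike in both arms. From D0 through D70 the median log2 fold change of the 9 was -0.03, -0.16, -0.41 and -0.65, beside medians over all genes between -0.01 and 0.01. These medians turn with single libraries. On D70 it was 0.26 without TMG replicate 2, 0.15 without control replicate 1 and -4.0 without TMG replicate 1, and on D0 leaving out a library gave -0.57 to 0.77. On D12 and D30 it stayed negative, at -0.63 to -0.07 and -0.63 to -0.20.

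**Figure D4:**
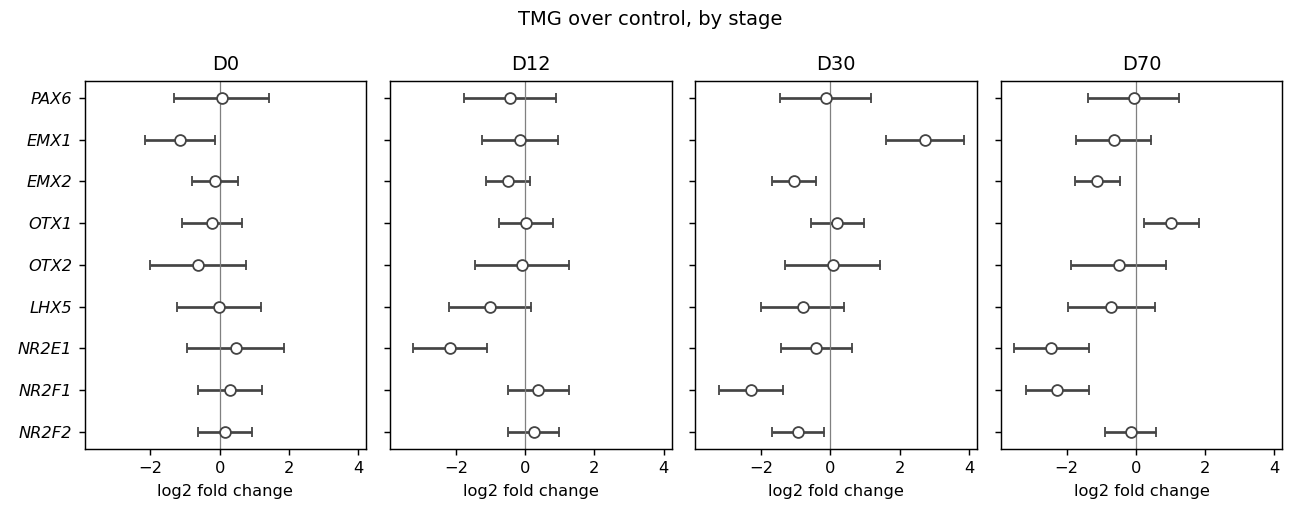
Log2 fold change of TMG over control with its standard error (edgeR) for each factor on D0, D12, D30 and D70. No factor passed a false discovery rate of 5%, and NR2F1 lies at -2.31 on D30 and -2.26 on D70.

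On D0 the largest difference was that of EMX1, with 4.20 and 8.32 CPM in control and 2.74 and 2.94 CPM in TMG-treated cells, a log2 fold change of -1.14 ± 1.01 (adjusted p = 1.00, edgeR). EMX1 and OTX2 lay below both controls in both TMG libraries, 2 of 9 where 16.9% of all genes did so, and 0 lay above where 19.7% did. OTX2 differed by -0.62 ± 1.39. Of the control replicates, replicate 2 was higher than replicate 1 for all 9 factors, and their summed level was 107 against 45.8 CPM.

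On D12 PAX6, LHX5 and NR2E1 lay below both controls in both TMG libraries, 3 of 9 where 16.5% of all genes did, and NR2F2 lay above, 1 of 9 where 17.8% did. Roof plate and neural crest markers summed to 517 and 756 CPM in control and 859 and 974 CPM in TMG-treated cells of D12, and mesenchyme markers to 1047 and 1191 against 1148 and 1832 CPM, and their part in the differences was not tested. NR2E1, at 17.5 and 3.83 CPM in control and 3.33 and 1.37 CPM in TMG-treated cells, differed most, with a log2 fold change of -2.18 ± 1.06 (unadjusted p = 0.0662, adjusted p = 1.00, edgeR). Its control replicates differed more than TMG replicate 1 differed from control replicate 2. LHX5, at 98.6 and 71.3 against 58.7 and 25.8 CPM, differed by -1.01 ± 1.18. PAX6 differed by -0.44 ± 1.32 and EMX2 by -0.51 ± 0.64, each with its lowest value in TMG replicate 2. NR2F2 differed by 0.25 ± 0.74, and NR2F1 by 0.39 ± 0.88 with TMG replicates on either side of the controls.

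On D30 both TMG libraries held less NR2F1 and NR2F2 than both controls, though neither factor passed the test. NR2F1 had 347 and 421 CPM in control and 119.7 and 35.7 CPM in TMG-treated cells. Both TMG libraries lay well below both controls. The log2 fold change was -2.31 ± 0.92 (unadjusted p = 0.0300, adjusted p = 0.363, edgeR; adjusted p = 0.103, DESeq2), and leaving out any 1 of the 4 libraries gave values between -3.43 and -1.68. Without TMG replicate 2, which held 29346 CPM of mesenchyme markers, the value was -1.68, with 119.7 CPM of NR2F1 in the remaining library, whose mesenchyme markers summed to 5483 CPM beside 4341 and 5095 in the controls. Other marker lists also lay apart between the arms on D30. Roof plate and neural crest markers summed to 184 and 393 CPM in control and 533 and 648 CPM in TMG-treated cells, with 1 of the 8 at 0 in control replicate 1, and 5 neuron markers to 551 and 664 against 781 and 948 CPM. The 5 cortical neuron markers summed to 17.1 and 19.2 against 36.9 and 152 CPM, with 1 at 0 in control replicate 1. Their part in the differences was not tested.

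NR2F2 had 415 and 389.9 CPM in control and 298 and 120.5 CPM in TMG-treated cells, also without overlap, and differed by -0.94 ± 0.75 (adjusted p = 0.663, edgeR), or by -0.43 without TMG replicate 2. EMX2 had 50.5 and 95.5 against 31.8 and 38.9 CPM (-1.05 ± 0.64, adjusted p = 0.559, edgeR), and LHX5 24.9 and 26.0 against 17.9 and 11.4 CPM (-0.80 ± 1.19). These 4 factors lay below both controls in both TMG libraries, 4 of 9 where 21% of all genes did. EMX1 lay above, 1 of 9 where 23.1% did. It had 0.188 and 0.853 CPM in control cells, or 2 and 17 counts, and 1.17 and 6.34 CPM in TMG-treated cells, or 12 and 67 counts. Its log2 fold change was 2.74 ± 1.12 (unadjusted p = 0.0334, adjusted p = 0.373, edgeR), and 1.05 without TMG replicate 2.

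PAX6, with 446 and 246 CPM in TMG-treated cells beside 431 and 331 in control, differed by -0.14 ± 1.32, and OTX2, with 189 and 149 beside 130.2 and 194, by 0.06 ± 1.36. NR2E1, with 4.57 and 6.53 CPM beside 8.74 and 6.07, differed by -0.41 ± 1.03. For PAX6 and OTX2 the arms overlapped and the sign turned with the library left out. OTX1 overlapped too.

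On D70 the TMG replicates were unlike each other. PAX6 had 7426 counts in TMG replicate 1 and 27 in replicate 2, or 587 and 2.50 CPM, with 306 and 312 CPM in control cells. OTX2 had 2745 counts and 1 count in the TMG replicates, NR2E1 66 and 1, EMX1 23 and 1, and LHX5 89 and 0. For LHX5 3 counts, taken as the limit that a count of 0 allows in a library, came to 0.277 CPM in TMG replicate 2, so TMG replicate 1 was at least 25.3-fold higher, a bound on counting error only.

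The other factors were kept in part in TMG replicate 2. NR2F2 had 211 CPM in TMG replicate 1 and 62.2 in replicate 2, beside 235 and 67.8 in control cells, so replicates differed by 3.39-fold in TMG-treated and 3.47-fold in control cells. EMX2 had 23.7 and 11.3 CPM, NR2F1 106 and 18.8 CPM and OTX1 85.6 and 8.60 CPM in the TMG replicates. The 9 factors summed to 104 CPM in TMG replicate 2, 1243 in TMG replicate 1, and 1285 and 707 in control replicates 1 and 2. Mesenchyme markers summed to 58852, 3669.6, 7331 and 44972 CPM in the same order. Other lists differed too. Roof plate and neural crest markers summed to 193, 3183, 9975 and 279 CPM, and 5 neuron markers to 205, 1166, 1141 and 549 CPM. Within the first of these lists TTR alone held 0.277, 2913, 9812 and 198 CPM. TFAP2A went another way, at 169, 1.90, 1.61 and 43.7 CPM. The 6 retinal pigment and eye markers summed to 7.21, 180, 285 and 1068 CPM, with 2 at 0 in TMG replicate 2. The part of these cell types in the differences was not tested. Control replicate 2 had 312 CPM of PAX6 and 122 CPM of OTX2.

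**Figure D5:**
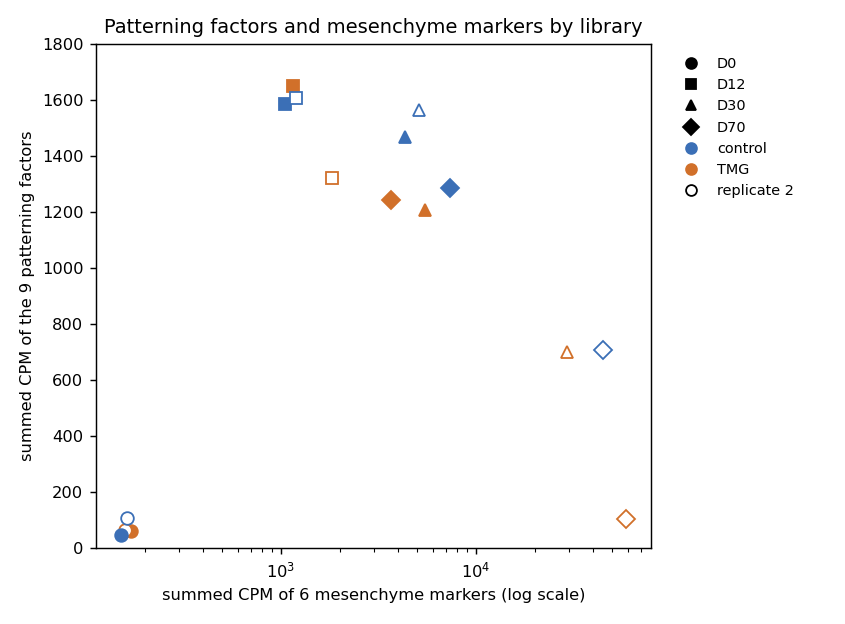
Summed CPM of the 9 factors against the summed CPM of 6 mesenchyme markers (log scale) in each of the 16 libraries, by stage (shape), arm (colour) and replicate (open for replicate 2). The 3 libraries with at least 29346 CPM of mesenchyme markers hold 702, 707 and 104 CPM of the factors, and the other libraries of D30 and D70 between 1206 and 1565 CPM.

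Against this spread, NR2F1 and NR2E1 were the factors that lay below both controls in both TMG libraries of D70, 2 of 9 where 12.4% of all genes did, and 0 lay above where 9.77% did. NR2F1 differed by -2.26 ± 0.92 (unadjusted p = 0.0323, adjusted p = 0.894, edgeR) and NR2E1 by -2.45 ± 1.08 (unadjusted p = 0.0451, adjusted p = 0.902, edgeR). Without TMG replicate 2 the values were -1.50 and -1.49. The remaining factors differed by -1.12 ± 0.65 (EMX2), -0.71 ± 1.25 (LHX5), -0.65 ± 1.09 (EMX1), -0.50 ± 1.37 (OTX2), -0.15 ± 0.74 (NR2F2), -0.07 ± 1.32 (PAX6) and 1.03 ± 0.79 (OTX1).

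Whether a factor was called on D70 rested on which TMG library was kept. Without TMG replicate 1, PAX6 differed by -6.96 (adjusted p = 0.00555, edgeR), OTX2 by -10.58 (adjusted p = 0.000727, edgeR) and NR2E1 by -7.19 (adjusted p = 0.0182, edgeR), in a fit that takes the lone library to vary as the other groups do and that called 3.07% of all genes. The values of OTX2 and NR2E1 rest on 1 count each in that library. From the counts alone the controls were 1693-fold (OTX2, 95% exact binomial interval 304 to 66879) and 159-fold (NR2E1, 28.3 to 6288) higher, intervals of counting error only. Without TMG replicate 2, PAX6 differed by 0.93 and OTX2 by 0.50, and none passed. Leaving out 1 library turned the direction of 7 of the 9, all but NR2F1 and NR2E1.

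The difference of TMG effects between stages was tested over the 6 pairs of stages. None of the 9 factors passed in any pair by edgeR, where 0 of all genes passed, or by DESeq2, which called 3 to 31 of all genes. In 1 pair 1 factor, EMX1 on D30 against D0, had an unadjusted p under 0.05, as did 4.94% of all genes (difference 3.87 ± 1.51, unadjusted p = 0.0263, adjusted p = 0.976, edgeR). For NR2F1 the effect on D30 minus that on D12 was -2.69 ± 1.27 (unadjusted p = 0.0573, adjusted p = 1.00, edgeR).

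A list of 15 other forebrain genes, written from general knowledge, was read beside the 9 factors. From D0 to D12, 1 rose and 1 fell in each arm: GLI3, a transcription factor of the hedgehog pathway, and HESX1, an early anterior repressor. Of all genes 6.97% rose and 9.71% fell in control cells, and 7.24% rose and 9.19% fell in TMG-treated cells. GLI3 had 75.6 and 124 CPM in control cells of D0 and 725 and 688 CPM on D12 (log2 fold change 2.82, adjusted p = 0.00148, edgeR). HESX1 had a log2 fold change of -1.85 (adjusted p = 0.0150, edgeR). In the comparison of arms none of the 15 passed by edgeR at any stage. In order of stage 0, 0, 3 and 3 had an unadjusted p under 0.05, beside 1.26%, 2.48%, 12% and 5.49% of all genes. DESeq2 called 0, 0, 1 and 2 of them, beside 0.0206%, 0.0454%, 2.46% and 0.227% of all genes.

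On D30 the lowest p belonged to LHX9, a LIM factor of the early forebrain and hem, with 2.82 and 6.67 CPM in control and 109 and 68.8 CPM in TMG-treated cells (log2 fold change 4.20, adjusted p = 0.318, edgeR). SP8, which acts on the anterior patterning centre, had 8.27 and 10.2 against 3.30 and 1.99 CPM. Mesenchyme markers summed to 5483 and 29346 CPM in those TMG libraries. LHX9 and BARHL2 lay above both controls on D12, 2 of 15 where 17.8% of all genes did, and 8 lay below, among them SIX3 and FEZF1, where 16.5% did. On D30 8 of the 15 lay below (21% of all genes) and 4 above (23.1%), and on D70 5 lay below (12.4%) and 0 above (9.77%). On D0 3 lay below (16.9%) and 1 above (19.7%). On D70 HESX1, RAX and SIX6 had the lowest p, and for RAX and SIX6, eye-field factors, the controls were far apart, at 7.91 and 95.9 CPM and at 0.0643 and 29.3 CPM.

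Likeness among the factors is given as Pearson's r of log2 CPM over the 16 libraries, a description of points that share stages. OTX1 and NR2F2 (0.94), EMX2 and NR2F2 (0.93), NR2F1 and NR2F2 (0.90) and PAX6 and NR2E1 (0.90) were most alike, and OTX1 and OTX2 stood at 0.61. EMX1 had negative values with 6 of the other 8. With each stage's mean removed, PAX6 and OTX2 were most alike (0.97), followed by PAX6 and LHX5 (0.86), among points that include the unlike D70 replicates.

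Among 11834 genes with a mean log2 CPM of at least 3, the pattern most like PAX6 was that of MAP6 (0.96), a neuronal microtubule protein. For OTX1 it was ZFHX4 (0.99), for OTX2 the noncoding RNA RMST (0.96), for EMX2 the axon guidance cue SLIT2 (0.96), for NR2F1 its overlapping NR2F1-AS1 (0.98), and for NR2F2 RIT1 (0.98). LHX5 was most like FZD3 (0.97), a Wnt receptor, and NR2E1 like RASA4 (0.95). Further genes of the nearest 3 were DMXL2 and ILDR2 for PAX6, MAP2 and LMX1A for OTX1, ASTN1 and CFAP91 for OTX2, and GLIS3 and PTPRM for NR2F2.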

How the data were processed

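RNA-seq of 16 H9 libraries was read from 1 table. The authors deposited estimated counts from RSEM 1.2.12 after alignment with Bowtie2 to hg19, as whole numbers and not normalized. Libraries summed to 10334908 to 19836878 counts, so few-count genes are limited by depth and the others by replicate spread. The 2 replicates of a group are called biological without further detail, so p-values measure the spread between these samples. Groups were taken from titles. edgeR 4.0.16 (R 4.3.3) fitted 1 mean for each of 8 groups by robust quasi-likelihood on 16 libraries (8 residual degrees of freedom) with TMM scaling, after filterByExpr at a minimum count of 10 and a minimum total of 15. P-values were adjusted by Benjamini-Hochberg over 24249 genes within each comparison. CPM are counts per 1000000 of TMM library size, and log2 CPM carry a prior count of 2. The study's own tool, DESeq2 (1.42.0), was an alternative, with RLE scaling, no filter, a replicate block, fits of the 4 libraries compared, each library left out and, chosen after the data were seen, no D70 libraries. The fits were tested on simulated data. Python 3.11.15 with pandas 2.3.3 tabulated results.

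Genes named are the 9 factors, their overlapping partners, up to 4 of the other forebrain list with the lowest p in a comparison, and for each factor the 3 genes of most similar profile, of which that of EMX1 is not reported here. SIX3, FEZF1 and BARHL2 on D12 were named after their values were seen. Members and lists were chosen with earlier results of these data known. Gene positions come from GENCODE 44 on GRCh37 and upstream sequences from RefSeq on GRCh38.p14.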

Additional observations from a re-analysis of the deposited data

How the results depend on the processing

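None of the 9 factors was called for TMG under any alternative on D0, D12 or D30, and no difference of effects between stages was called under DESeq2, RLE scaling, no filter or the replicate block. Of 144 fold changes computed, 98 kept their sign under every alternative.

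With no filter the called factors numbered 3, 4 and 3 in control cells from D0 to D12, D30 and D70, 0 from D12 to D70, and 2, 2 and 2 in TMG-treated cells from D0 to D12, D30 and D70. DESeq2 gave 2 (control) and 1 (TMG) from D12 to D70. With only the 4 libraries compared there were 9 (D0 to D12), 3 (D12 to D30) and 0 (D12 to D70) in control cells. In TMG-treated cells there were 9 (D0 to D12) and 1 (D0 to D70). The share of all genes is not given for these fits or those without a filter. Their counts are therefore no result particular to the factors. Without D70 there were 2 from D12 to D30 in control and 8 from D0 to D12 in TMG-treated cells. The replicate block gave 2 from D0 to D70 in TMG-treated cells and moved no other count by over 1.5 times. Replicate differences correlated between arms at 0.05, 0.37, 0.22 and 0.61 on D0, D12, D30 and D70. D0 showed next to none and nothing in the labels ties equal numbers, so they were not taken as pairs. EMX2 and LHX5 were lower under TMG than in the control of the same number in both replicates of D12, D30 and D70. The share of all genes with this pattern is not given, so it is no result particular to these factors. The block gave -0.51, -0.99 and -0.94 for EMX2 and -1.10, -0.84 and -1.01 for LHX5, none called.

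Leaving out each library gave 2 to 4 called factors from D0 to D12, 4 to 5 to D30 and 2 to 5 to D70 in control cells, and 0 from D12 to D70. In TMG-treated cells it gave 1 to 3, 1 to 3 and 0 to 6 from D0, 0 to 5 from D12 to D70 and 0 to 5 from D30 to D70. For TMG on D70 it gave 0 to 3. Of 144 fold changes 46 turned in at least 1 setting, and some of those of TMG over control are given here. They ranged over -0.75 to 1.01 for NR2F1 on D12, -0.63 to 0.23 for PAX6 and -0.20 to 0.38 for OTX2 on D30. On D70 they ranged over -6.96 to 0.93 for PAX6, -3.95 to 0.60 for EMX1, -1.78 to 0.15 for EMX2, -1.44 to 1.89 for OTX1, -10.58 to 0.50 for OTX2, -9.49 to 2.15 for LHX5 and -1.30 to 1.01 for NR2F2. The -9.49 of LHX5 is no measured size, since the lone TMG library has 0 counts and the fit sets it. At the limit of 3 counts the control mean was at least 20.8-fold higher. The lowest values of EMX1 and OTX2 rest on 1 count. The cause was not tested. Of the 3 genes nearest each factor, those shared once stage means were removed numbered 1 for OTX2, LHX5 and NR2F1 and 0 for the others. NR2E1 on D0 and EMX1 from D12 on are limited by few counts.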
